A study of Mus musculus with 28 samples.

Results

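The Hedgehog pathway was followed here through 8 genes, Shh, Hhip, Ptch1, Smo, Sufu, Gli1, Gli2 and Gli3. They were picked by gene symbol from the 18274 symbols that occur in the 5 deposited tables, and every peak annotated to one of them was taken. The cells were CD34+ α6-integrin+ hair follicle stem cells, sorted by flow cytometry straight from the skin of old mice aged 24 months and of young mice aged 6 months, all of the strain labelled 132-C67BL/6J. For each age there were 3 RNA-seq samples, 4 ATAC-seq samples, 3 samples of ChIP-seq for the histone mark H3K27me3, and 2 each for H3K4me3 and Pol2, which is RNA polymerase II. The labels name no transgene and no treatment, and do not say whether cells of several animals were pooled. The series title places these comparisons in a study of whether accessibility at promoters that carry both histone marks falls with age.

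Hedgehog ligands act by binding the membrane protein Patched, which otherwise holds the transducer Smoothened in check. Once Smoothened is free, the Gli factors escape Sufu and processing into repressors and switch on target genes, among which are Gli1 and the pathway's own brakes, Ptch1 and Hhip. In skin the pathway drives growth of the hair follicle, and bulge stem cells receive the ligand from their neighbours at the onset of a new hair cycle.

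H3K4me3 marks active and poised promoters, H3K27me3 is the mark of Polycomb repression, and ATAC-seq counts fragments from open chromatin. Textbook markers, chosen with earlier results of these data known, were looked up in the sorted cells. Levels are those of whole peaks and were not scaled to peak width. All 10 bulge markers, Cd34 and Itga6 among them, had an H3K4me3 promoter peak in the authors' deposited table, with a median log2 level of 13.43 in old and 14.94 in young cells. Immune markers had such a peak at 0 of 7 genes, and fibroblast markers at 3 of 6 with a median of 8.60 in old and 9.84 in young cells. Hair shaft and matrix markers had one at 4 of 5 genes (10.43 in old, 12.06 in young), sebaceous gland at 3 of 4 (9.67, 10.82), interfollicular epidermis at 2 of 5 (9.12, 10.18), melanocytes at 2 of 5 (8.23, 9.42) and endothelium at 1 of 4 (6.86, 8.38), each in the same order of ages in the authors' deposited table. Pol2 promoter peaks covered 9 of the 10 bulge markers and none of the other 7 lists. Of all markers only Cd74, on the immune list, was called in the RNA table, lower in old cells, and its part in the Hedgehog results was not tested. ATAC-seq counts over all 7849 listed peaks summed to between 1572998 and 1946804 in old libraries and between 2456110 and 2773284 in young ones.

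Across the pathway, RNA and promoter H3K4me3 went in different directions at Hhip and Ptch1. Transcripts of the feedback inhibitors Hhip and Ptch1 were more abundant in old cells, by 1.98-fold and 1.48-fold in the authors' deposited table, where 38% of the 597 listed genes were called higher. H3K4me3 was called lower in old cells at the promoter of every gene that had an H3K4me3 promoter peak annotated to it. These genes were Hhip, Ptch1, Smo, Gli1, Gli2 and Gli3, and 94.3% of all promoter peaks were called lower. The median log2 fold change over all promoter peaks was −1.42, so the lower H3K4me3 was not particular to these genes. Whether this shared shift depends on how the ChIP-seq counts were normalized was not tested. Shh, the ligand gene, lay inside a broad H3K27me3 domain whose level was called lower in old cells, as were 9.19% of H3K27me3 promoter peaks. At the 11 listed ATAC-seq peaks of the pathway, old cells had the lower mean count at 10, or 90.9% beside 85.9% of all listed peaks, and the higher one at 1, upstream of Gli3.

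**Figure D1:**
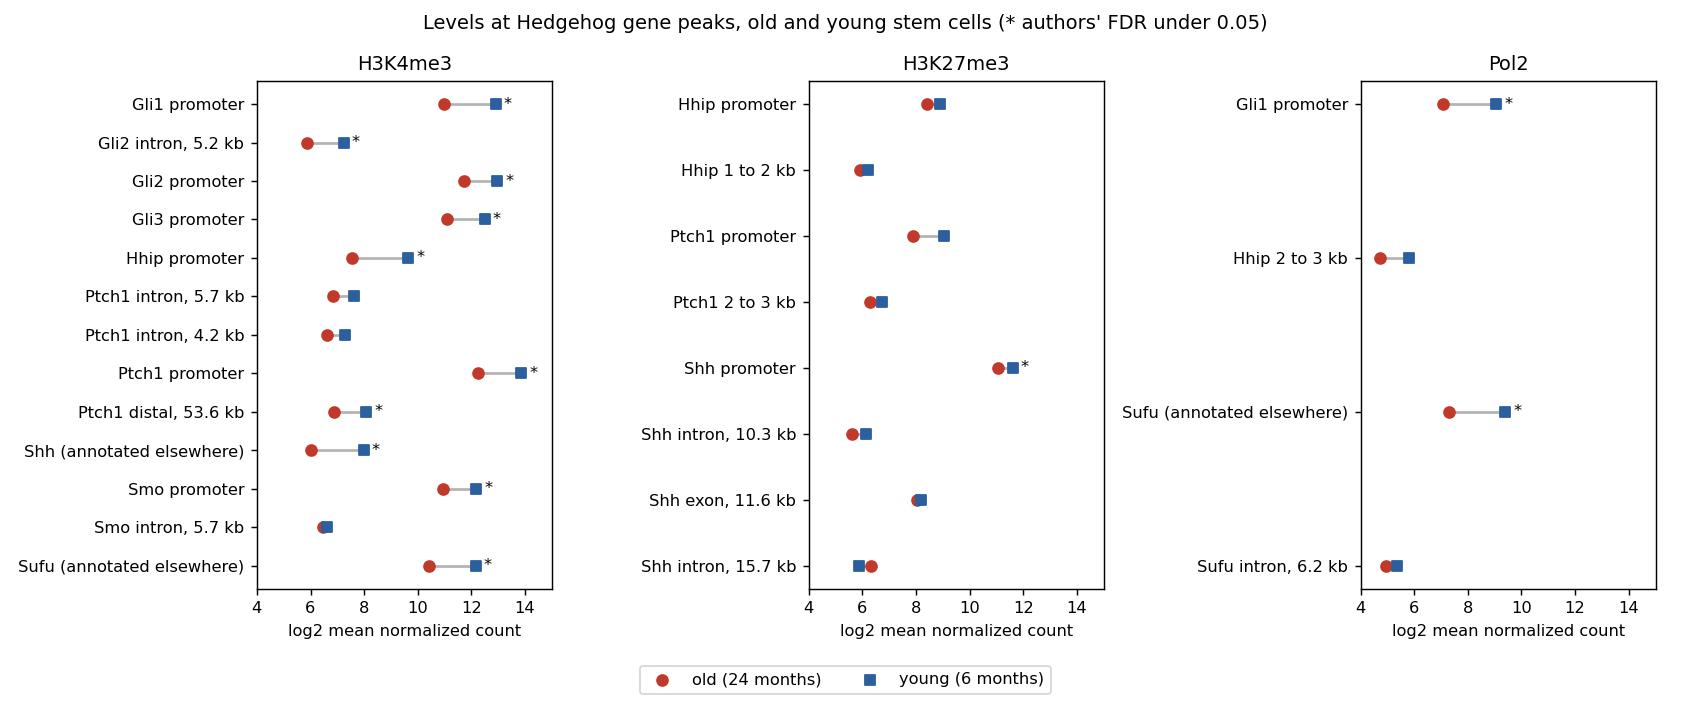
Log2 mean normalized read count in the peak (horizontal axes) at each H3K4me3, H3K27me3 and Pol2 peak of the Hedgehog genes, for old cells (red circles) and young cells (blue squares), from the authors' deposited tables, which give group means with no error. Asterisks mark an authors' FDR under 0.05, distances are from the annotated start, peaks called annotated elsewhere lie on or within 1 kb of the named gene but were assigned to another transcript, and the 18 distal H3K27me3 peaks of Ptch1 are left out. The old level lies below the young level at every H3K4me3 and Pol2 peak drawn.

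Promoter sequences of 6 of the 8 genes were found in RefSeq (GRCm38.p6). Shh and Gli1 are named only. The 3 below are the 250 bases before the start of Hhip and of Ptch1, the genes whose RNA passed the test and whose H3K4me3 promoter peaks overlapped H3K27me3, and of Sufu, which had the fewest CpG dinucleotides of the 6. They are written 5′ to 3′ on the strand of the gene, and capitals mark each CpG, the dinucleotide whose density sets CpG island promoters apart.
Hhip, chr8:80058009-80058258, minus strand: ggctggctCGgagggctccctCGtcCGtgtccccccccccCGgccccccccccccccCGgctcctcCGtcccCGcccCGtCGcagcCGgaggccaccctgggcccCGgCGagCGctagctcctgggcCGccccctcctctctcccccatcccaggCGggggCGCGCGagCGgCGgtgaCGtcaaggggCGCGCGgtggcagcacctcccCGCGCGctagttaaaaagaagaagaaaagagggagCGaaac
Ptch1, chr13:63565736-63565985, minus strand: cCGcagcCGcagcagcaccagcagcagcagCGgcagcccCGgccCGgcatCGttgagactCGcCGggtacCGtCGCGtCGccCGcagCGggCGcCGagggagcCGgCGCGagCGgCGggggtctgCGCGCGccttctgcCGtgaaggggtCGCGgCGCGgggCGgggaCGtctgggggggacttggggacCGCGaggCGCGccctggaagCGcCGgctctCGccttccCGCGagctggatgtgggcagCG
Sufu, chr19:46396646-46396895, plus strand: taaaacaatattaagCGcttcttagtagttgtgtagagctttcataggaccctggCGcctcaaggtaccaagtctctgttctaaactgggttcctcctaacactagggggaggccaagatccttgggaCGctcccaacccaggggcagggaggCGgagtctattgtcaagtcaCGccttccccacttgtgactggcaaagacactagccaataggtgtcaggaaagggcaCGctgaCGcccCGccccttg
The Hhip window holds 28 CpGs with a GC content of 76%, more CpGs than 92.4% of the 32851 RefSeq promoter windows of this length. Ptch1 has 41 CpGs and a GC content of 78.4%, above 98.9% of windows, and Sufu has 8 CpGs and 54% GC, above 57.0%. The other 3 genes lie between, with 34 CpGs at Gli3, 22 at Gli2 and 15 at Smo, against a median of 6 over all windows and quartiles of 2 and 16. All 250 bases of the Hhip window lay in the H3K27me3 peak and 117 of them in the H3K4me3 peak. The windows of the other 5 genes lay wholly inside an H3K4me3 peak and outside any H3K27me3 peak. The letters GACCACCCA, the consensus bound by Gli proteins, were searched on both strands and did not occur in these 6 windows. They occur in 74 of the 32851 windows, or 0.225%. Counting CpGs was decided after the data had been seen.

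Shh encodes Sonic hedgehog, the secreted ligand, on chr5:28456840-28467101. Its start lay in an H3K27me3 domain at chr5:28453285-28476171 that covered the whole gene and, at 22.9 kb, was wider than 92.9% of H3K27me3 promoter peaks. The log2 level of that domain was 11.06 in old and 11.60 in young cells in the authors' deposited table, a log2 fold change of −0.54 with a DiffBind FDR of 0.0266. It was the only one of the 26 H3K27me3 peaks annotated to the pathway that passed an FDR of 0.05, and the shares over all peaks of the table were 2.6% lower and 2.66% higher in old cells. At promoter peaks those shares were 9.19% lower and 3.14% higher. A more negative log2 fold change than that of the Shh domain was found at 17.3% of H3K27me3 promoter peaks.

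Beyond the domain, 3 narrower H3K27me3 peaks were annotated to Shh between 10.3 and 15.7 kb upstream, and none passed the test. Their log2 levels were 5.60 in old and 6.13 in young cells (FDR 0.619), 8.03 and 8.18 (FDR 0.807), and 6.31 and 5.89 (FDR 0.675), in that order of groups in the authors' deposited table. The first and second of these values were lower in old cells and the third was higher. No H3K4me3, Pol2 or ATAC-seq peak was annotated to Shh, and its RNA is not among the 597 genes listed with an adjusted p up to 0.1. One H3K4me3 peak nevertheless fell inside the gene and inside the H3K27me3 domain, at chr5:28463873-28465373. The authors assigned it to the neighbouring transcript ENSMUST00000180828, for which their table gives no symbol. Its log2 level in the authors' deposited table was 6.01 in old and 7.99 in young cells, with a log2 fold change of −1.98 and an FDR of 0.0163.

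Hhip encodes a membrane-bound protein that captures Hedgehog ligands, and Hedgehog signalling itself switches it on. The gene lies on chr8:79965850-80058060. In the RNA comparison, the authors' deposited table gives a mean normalized count of 438 over all 6 libraries and a log2 fold change of 0.99 with a standard error of 0.22 (DESeq2, adjusted p = 0.00189). By size this was the 9th largest increase among the 227 genes called higher in old cells. Both members in the RNA table were called higher, and called higher genes make up 38% of the 597 listed genes and called lower genes 18.8%. The direction is that of the table's header, and since no value per sample is given it could not be checked against libraries. In sorted bulk samples, a change in RNA per cell and a change in the share of cells that express a gene cannot be told apart.

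At the Hhip promoter H3K4me3 was lower in old cells. The peak at chr8:80055722-80058125 had a log2 level of 7.56 in old and 9.64 in young cells in the authors' deposited table, a log2 fold change of −2.08 (FDR 3.93e-09). Only 3.91% of all H3K4me3 promoter peaks had a more negative value, and none of the other members did. It was also the narrowest of the 6 member promoter peaks, at 2.40 kb.

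This H3K4me3 peak lay entirely inside an H3K27me3 peak, chr8:80054250-80059051, so both marks were found at this promoter in the sorted cells. The H3K27me3 level there was 8.42 in old and 8.88 in young cells in the authors' deposited table, with a log2 fold change of −0.47 that did not pass the test (FDR 0.174). A second H3K27me3 peak 1.94 kb upstream had 5.90 in old and 6.21 in young cells in the authors' deposited table (FDR 0.795). The only Pol2 peak annotated to Hhip lay well inside the gene at chr8:79992847-79993049, upstream of the short transcript ENSMUST00000155850. Its log2 level in the authors' deposited table was 4.71 in old and 5.80 in young cells, a difference of −1.08 that did not pass (FDR 0.189).

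Ptch1 encodes the Hedgehog receptor Patched, which restrains Smoothened and is induced by the pathway. It lies on chr13:63508328-63573460. The authors' deposited table gives it a mean normalized RNA count of 12044 and a log2 fold change of 0.56 with a standard error of 0.14 (DESeq2, adjusted p = 0.00590), the 119th largest among the 227 genes called higher. Its change was smaller than that of Hhip, although the difference between the 2 genes was not tested.

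The Ptch1 promoter had the widest H3K4me3 peak of the pathway, 15.1 kb at chr13:63559946-63574999, wider than 99.1% of H3K4me3 promoter peaks. In the authors' deposited table its log2 level was 12.23 in old and 13.85 in young cells, a log2 fold change of −1.62 (FDR 3.75e-06). The domain spans all 4 Ptch1 starts used in the annotation of the tables. The start at position 63565735, used for the promoter window printed above, is that of ENSMUST00000021921, and those of ENSMUST00000194663 and ENSMUST00000195106 lie 7.73 and 7.86 kb upstream of it. H3K27me3 covered only that upstream end, at chr13:63568886-63574601, 38.0% of the H3K4me3 domain. Both upstream starts, of which that of ENSMUST00000194663 is also the 5′ end of the RefSeq gene span, lay inside the H3K27me3 peak, and position 63565735 did not.

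The H3K27me3 level of that peak was 7.88 in old and 9.03 in young cells in the authors' deposited table. The log2 fold change of −1.15 lay among the lowest 4.57% of H3K27me3 promoter peaks, yet its FDR was 0.236. Another peak between 2 and 3 kb upstream had 6.28 in old and 6.75 in young cells in the authors' deposited table (FDR 0.587). The remaining 18 H3K27me3 peaks assigned to Ptch1 were scattered over intergenic sequence from 5.48 to 105 kb upstream of ENSMUST00000195106. Of these, 7 had a lower and 11 a higher level in old cells, with log2 fold changes from −1.18 to 1.13 and FDRs from 0.0523 to 0.988 in the authors' deposited table. The lowest FDR belonged to chr13:63608218-63609726, where the authors' deposited table gives 6.66 in old and 5.52 in young cells.

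A distal site upstream of Ptch1 appeared in both the ATAC-seq and the H3K4me3 table. The H3K4me3 peak at chr13:63627185-63628173 was called lower in old cells, with log2 levels of 6.89 in old and 8.08 in young cells in the authors' deposited table (log2 fold change −1.19, FDR 0.00643). An ATAC-seq peak of 600 bp, described with the other ATAC-seq peaks, lay wholly within it. The 2 remaining H3K4me3 peaks of Ptch1, in the second intron, did not pass the test. One had 6.84 in old and 7.62 in young cells (FDR 0.0655) and the other 6.62 in old and 7.28 in young cells (FDR 0.467) in the authors' deposited table.

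**Figure D2:**
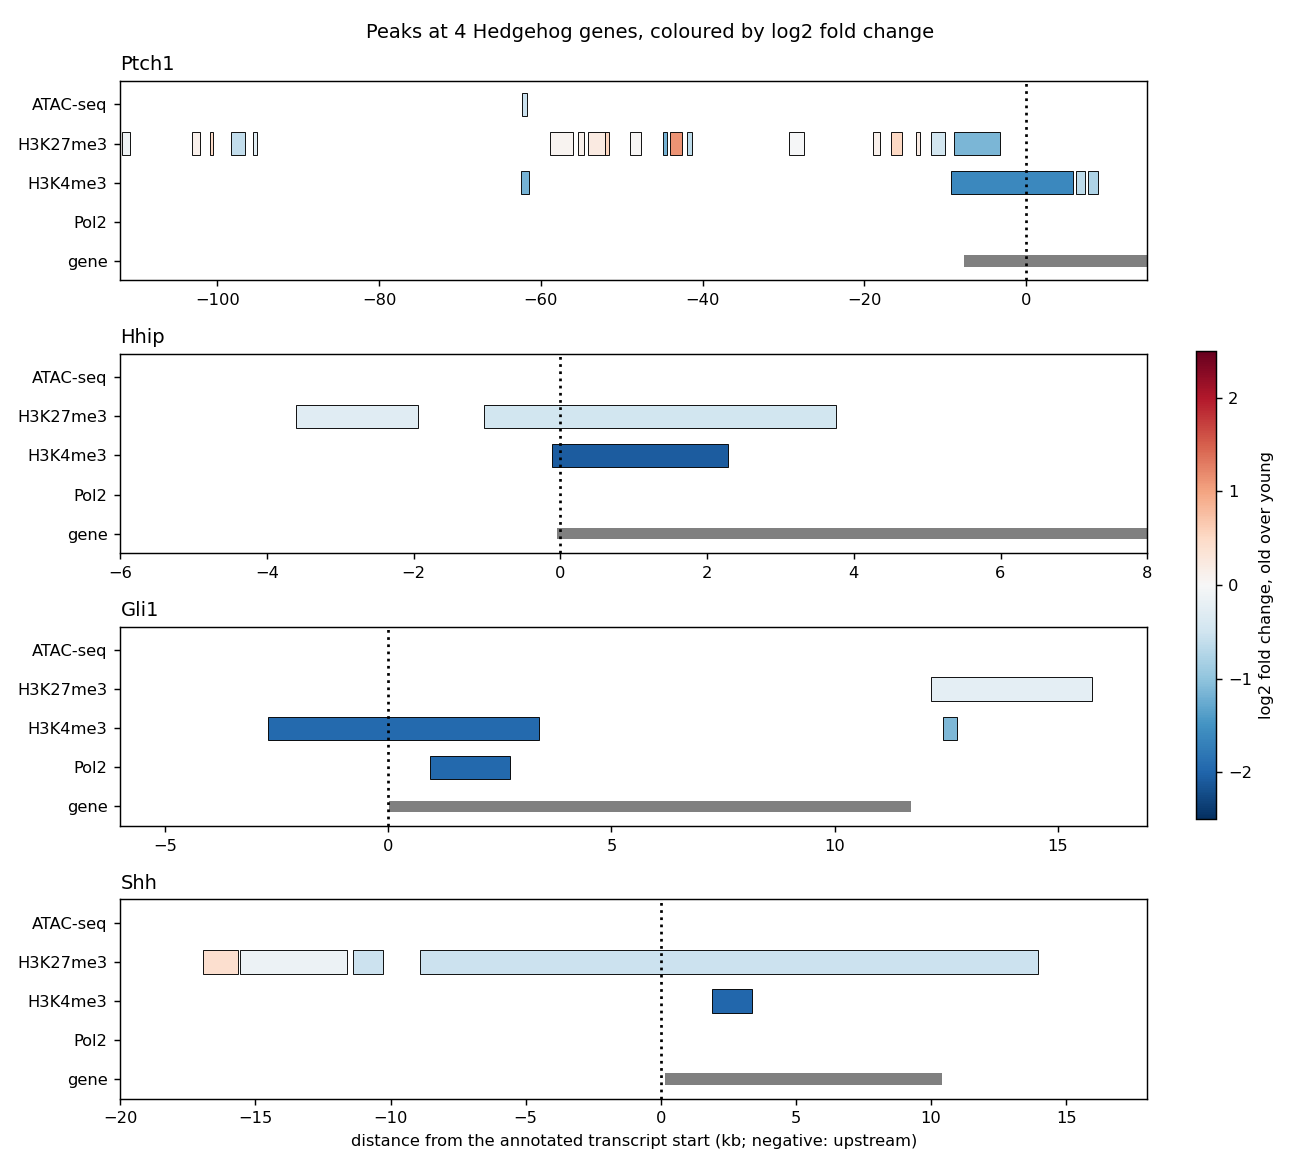
Peaks around Ptch1, Hhip, Gli1 and Shh by distance in kb from a transcript start of the tables' annotation (dotted line; for Ptch1 the start at position 63565735), with ATAC-seq, H3K27me3, H3K4me3 and Pol2 peaks in rows and the gene body in grey; colour gives the log2 fold change of old over young (blue lower, red higher). At Ptch1 the H3K27me3 peak overlaps only the upstream end of the 15.1 kb H3K4me3 peak, while at Hhip the 2.40 kb H3K4me3 peak lies wholly inside H3K27me3. Peaks beyond the drawn span are left out, namely the ATAC-seq peaks and the Pol2 peak of Hhip and the H3K27me3 peak farthest from Ptch1.

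Smo encodes Smoothened, the membrane protein that passes the signal on, and lies on chr6:29735497-29761366. Its promoter peak at chr6:29733042-29740336 had a log2 H3K4me3 level of 10.93 in old and 12.17 in young cells in the authors' deposited table (log2 fold change −1.24, FDR 3.44e-05). A small intronic peak 5.69 kb downstream of the start had 6.45 in old and 6.63 in young cells in the same authors' deposited table and did not pass (FDR 0.713). No H3K27me3 or Pol2 peak was annotated to Smo, and its RNA is not listed.

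Sufu, the cytoplasmic protein that binds Gli factors and keeps them inactive, lies on chr19:46396896-46488804. Only 1 peak was annotated to it, a Pol2 peak in an intron at chr19:46464124-46464432 with 4.94 in old and 5.35 in young cells in the authors' deposited table (FDR 0.746). Its start was nevertheless covered by H3K4me3. The peak there, chr19:46392517-46400270, was assigned by the authors to the adjacent gene Actr1a, which encodes a dynactin subunit. Its log2 level in the authors' deposited table was 10.41 in old and 12.16 in young cells, a log2 fold change of −1.75 (FDR 3.24e-08). A Pol2 peak within 1 kb of the gene, chr19:46394328-46396216, was likewise assigned to Actr1a. The authors' deposited table gives it 7.30 in old and 9.39 in young cells (log2 fold change −2.09, FDR 0.0111). Signal of the 2 neighbouring promoters cannot be told apart in these peaks.

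Gli1 encodes an activating transcription factor of the pathway whose own transcription is a standard readout of Hedgehog signalling. The gene lies on chr10:127329882-127341579. Its promoter H3K4me3 peak, chr10:127338207-127344288, had a log2 level of 10.96 in old and 12.91 in young cells in the authors' deposited table. The log2 fold change of −1.95 (FDR 8.23e-08) was lower than at all but 5.23% of promoter peaks.

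Gli1 was the only member with a Pol2 promoter peak annotated to it, chr10:127338855-127340649, and the peak lay wholly within the H3K4me3 peak. The log2 Pol2 level was 7.09 in old and 9.06 in young cells in the authors' deposited table, a log2 fold change of −1.97 with an FDR of 0.0268. Among the 3 Pol2 peaks annotated to the pathway this 1 was called lower and none higher, while 52.9% of all Pol2 peaks were called lower and 0.0442% higher, and 79.1% of Pol2 promoter peaks were called lower. The median over all Pol2 promoter peaks was −2.28, so the value at Gli1 was less negative than the median promoter. Gli1 RNA is not among the listed genes. Beyond the 3′ end of Gli1, at the neighbouring gene Arhgap9, an H3K4me3 peak at chr10:127328849-127329166 had 4.91 in old and 6.03 in young cells in the authors' deposited table (FDR 0.0466). An H3K27me3 peak there had 7.73 in old and 7.97 in young cells in the authors' deposited table (FDR 0.821).

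Gli2 and Gli3 encode the factors that carry the first response to the ligand, Gli2 chiefly as activator and Gli3 chiefly as repressor. Gli2 lies on chr1:118834061-119054405. Its promoter peak at chr1:119048304-119055947 had a log2 H3K4me3 level of 11.72 in old and 12.97 in young cells in the authors' deposited table (log2 fold change −1.25, FDR 0.000111). A peak of 604 bp just inside the gene, 5.23 kb from the start of ENSMUST00000159839, had 5.86 in old and 7.24 in young cells in the authors' deposited table and was also called lower (FDR 0.00341). Gli3 lies on chr13:15463723-15730026. At its promoter, chr13:15460777-15468829, the authors' deposited table gives 11.09 in old and 12.50 in young cells (log2 fold change −1.42, FDR 1.42e-05). Neither gene had an H3K27me3 or Pol2 peak annotated to it, and neither is in the RNA list.

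Counted together, 8 of the 11 H3K4me3 peaks annotated to the pathway were called lower in old cells, 0 higher and 3 did not pass. Among all peaks of the table, 79.1% of H3K4me3 peaks were called lower and 0.281% higher, so a count of 72.7% lower is near the background. All 6 promoter peaks of the pathway were called lower, against 94.3% of all promoter peaks lower and 0.037% higher. Their median log2 fold change was −1.52, against −1.42 over the 13505 promoter peaks, whose 5th and 95th percentiles were −1.97 and −0.87. Only Hhip fell outside that range. Gli1 lay close to its lower edge, Gli3 at the median, and Smo and Gli2 above it, with 79.6% and 78.5% of promoter peaks more negative. In this order the 3 genes induced by the pathway, Hhip, Gli1 and Ptch1, had the 3 most negative values of the 6, which is a description of 6 values and was not tested. The 6 leave out the peaks annotated elsewhere that cover the Sufu start (−1.75) and lie inside Shh (−1.98). Both of those values were more negative than that of Ptch1, and the Shh value was also more negative than that of Gli1.

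**Figure D3:**
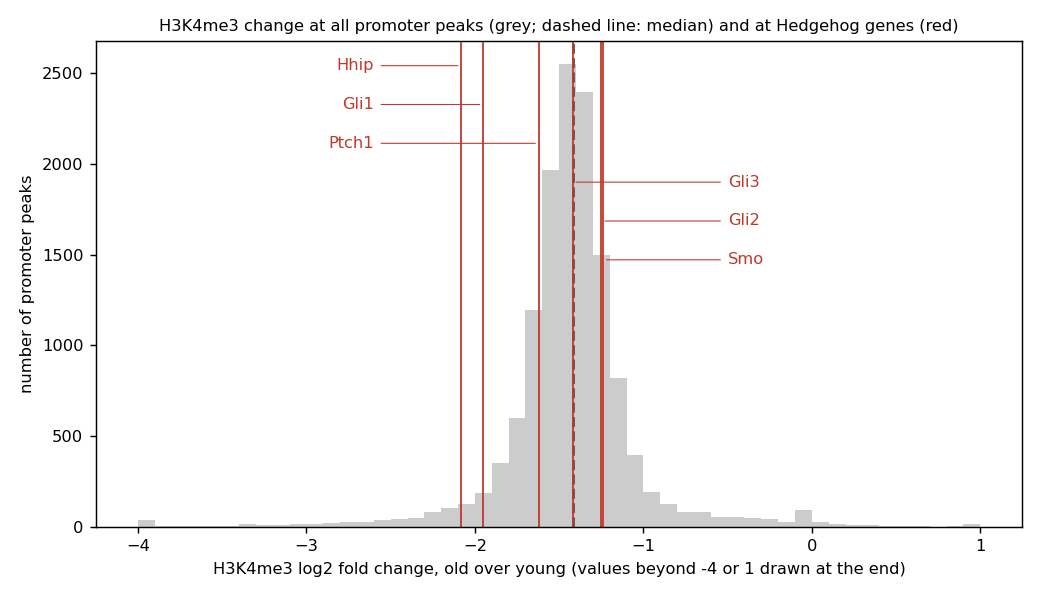
Distribution of the H3K4me3 log2 fold change of old over young (horizontal axis) over all 13505 promoter peaks (grey bars, number of peaks; values beyond the axis drawn at its ends), with the median as a dashed line and the 6 promoter peaks of Hedgehog genes as red lines. Hhip at −2.08 and Gli1 at −1.95 lie in the lower tail, Ptch1 at −1.62 below the median of −1.42, Gli3 at the median, and Gli2 and Smo above it.

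Scaled to peak width, promoters of the pathway differed less among themselves. Per kb of peak, the log2 H3K4me3 level in old cells was 8.79 at Gli2, 8.36 at Gli1, 8.32 at Ptch1, 8.08 at Gli3, 8.06 at Smo and 6.29 at Hhip, computed from the authors' deposited table. In young cells it was 10.31 at Gli1, 10.04 at Gli2, 9.94 at Ptch1, 9.49 at Gli3, 9.30 at Smo and 8.37 at Hhip, from the same authors' deposited table. Hhip, the promoter embedded in H3K27me3, was lowest at both ages. Gli1 and Gli2 exchanged the first and second place between the ages. The tables give no spread between samples, so whether neighbours in these orders differ cannot be read from them.

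Promoters that carry H3K4me3 and H3K27me3 together are called bivalent. Of the 6 genes with an H3K4me3 promoter peak, 2, Hhip and Ptch1, had an H3K27me3 peak overlapping it by at least 1 bp. Over all genes with an H3K4me3 promoter peak, 15.4% did so, 1779 of 11585. With the overlap required to cover 50% of the H3K4me3 peak, Hhip alone remained, beside 8.86% of all genes. In sorted bulk samples, such an overlap cannot tell both marks on the same copy of a promoter from marks in different cells. The 2 promoters with the overlap were the 2 whose RNA was listed and higher in old cells. The RNA list stops at an adjusted p of 0.1 and gives no value for the other members, so a link between the marks and RNA was not tested. Across all 26 H3K27me3 peaks of the pathway, 14 had a lower and 12 a higher level in old cells, with a median log2 fold change of −0.07 against 0.12 over all 67985 peaks.

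The ATAC-seq table gives a count per library and could be tested anew. It lists only peaks that already differed between the ages in the authors' own comparison, so a false discovery rate computed on it ranks listed peaks and does not say how many peaks changed. Counts were compared with edgeR without scaling between libraries, a choice made because 85.9% of the listed peaks had a lower mean in old cells. That share itself comes from unscaled counts. Totals over the listed peaks were lower in every old library (1572998 to 1946804) than in every young one (2456110 to 2773284). Whether library depth or a shared change underlies this was not tested, and the calls without scaling and the overlap of counts depend on it. Scaling by TMM, which assumes that most listed peaks do not change, moved the median log2 fold change of all listed peaks by 0.59. Without scaling, 6 of the 11 peaks of the pathway were called lower and 0 higher, against 46.4% and 5.43% of the listed peaks. With TMM scaling 0 were called lower and 1 higher, against 0.701% and 13.9%. Counts of old and young libraries did not overlap at 5 of the 11, while 40.7% of listed peaks did not overlap. No listed peak lay at a promoter of a member, and Shh, Sufu and Gli1 had no listed peak.

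Smo had 1 listed peak, 5.20 kb upstream at chr6:29729801-29730300. Its counts were 189, 214, 217 and 136 in old replicates 1 to 4 and 279, 259, 406 and 434 in young replicates 1 to 4. All 4 old libraries lay below all 4 young ones. The means were 189 ± 37.5 in old and 345 ± 88.3 in young libraries (SD, n = 4 each), with a log2 fold change of −0.87 (SE 0.26, edgeR FDR 0.0232 without scaling and 0.947 with TMM, where the log2 fold change was −0.28). Without young replicate 3 it was −0.78 and did not pass.

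The Ptch1 peak that lies within the distal H3K4me3 peak, chr13:63627451-63628050, had counts of 359, 285, 291 and 95 in old and 429, 330, 342 and 393 in young replicates 1 to 4. Groups overlapped, since old replicate 1 exceeded 2 young libraries, and old replicate 4 was far below the other 7 libraries. The log2 fold change of −0.54 (SE 0.30) did not pass, with an edgeR FDR of 0.0983 without scaling, and was 0.01 with TMM. Without old replicate 4 it was −0.26, with an edgeR FDR of 0.269. The position is 61.9 kb upstream of the Ptch1 start in the ATAC-seq annotation and 53.6 kb upstream in the H3K4me3 annotation, which used different starts.

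For Hhip a pair of neighbouring peaks lay about 192 kb upstream. Counts at chr8:80250601-80251150 were 102, 157, 160 and 159 in old and 172, 232, 202 and 355 in young replicates 1 to 4. The groups did not overlap, with means of 145 ± 28.4 in old and 240 ± 80.3 in young libraries (SD, n = 4 each). The log2 fold change was −0.73 (SE 0.29, edgeR FDR 0.0431 without scaling) and −0.11 with TMM. It did not pass without any 1 of the old replicates or of young replicates 2 to 4, at −0.81 to −0.48, the last without young replicate 4. The neighbour at chr8:80249901-80250300 had 81, 146, 121 and 100 counts in old and 129, 157, 185 and 235 counts in young replicates 1 to 4. Here old replicate 2 lay above young replicate 1, and the log2 fold change of −0.66 (SE 0.31) did not pass without scaling (edgeR FDR 0.0651).

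Gli2 had 3 listed peaks. The one with most counts lay in an intron at chr1:119014951-119015750, 37.9 kb downstream of the annotated start. It had counts of 540, 406, 493 and 496 in old and 550, 807, 789 and 650 in young replicates 1 to 4. Groups just failed to overlap, by 10 counts between old replicate 1 and young replicate 1. Its means were 484 ± 56.1 in old and 699 ± 122 in young libraries (SD, n = 4 each), with a log2 fold change of −0.53 (SE 0.19, edgeR FDR 0.0326 without scaling), whereas TMM turned the direction to 0.06. Without old replicate 2 or 3 or young replicate 2 or 3 it did not pass, at −0.54 to −0.45.

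The intergenic Gli2 peak 114 kb upstream, chr1:119167351-119167950, had 282, 293, 331 and 229 counts in old and 370, 461, 361 and 581 counts in young replicates 1 to 4. All old libraries lay below all young ones, and the log2 fold change was −0.64 (SE 0.23, edgeR FDR 0.0333 without scaling) and −0.05 with TMM. It did not pass without old replicate 2, 3 or 4 or young replicate 2 or 4, at −0.73 to −0.49. A weaker peak in the same intron as the first, chr1:119017951-119018200, had 31, 84, 83 and 51 counts in old and 80, 89, 109 and 129 counts in young replicates 1 to 4. These groups overlapped at young replicate 1, and the log2 fold change of −0.71 (SE 0.38) did not pass without scaling (edgeR FDR 0.0870).

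The means of the 4 listed Gli3 peaks did not share a direction. Closest to the gene, 4.84 kb upstream at chr13:15457901-15458400, was the only peak of the pathway with a higher mean in old cells. It had 310, 273, 352 and 177 counts in old and 217, 152, 199 and 197 counts in young replicates 1 to 4. Old replicates 1 to 3 lay above every young library and old replicate 4 lay among them. Means were 278 ± 74.7 in old and 191 ± 27.7 in young libraries (SD, n = 4 each). Its log2 fold change of 0.54 (SE 0.26) did not pass without scaling (edgeR FDR 0.0722), and it was called higher with TMM at 1.11 (edgeR FDR 0.00272). Without old replicate 4 it was also called higher without scaling, at a log2 fold change of 0.70.

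The other 3 Gli3 peaks had lower means in old cells. At chr13:15066901-15067100, 396 kb upstream in an intron of another transcript, the counts were 33, 36, 31 and 5 in old and 65, 92, 57 and 106 in young replicates 1 to 4. Groups did not overlap, the means were 26.3 ± 14.3 in old and 80.0 ± 22.9 in young libraries (SD, n = 4 each), and the log2 fold change of −1.60 (SE 0.47, edgeR FDR 0.0222 without scaling and 0.168 with TMM) was the most negative of the 11. At chr13:15512051-15512400, in intron 2, the counts were 106, 64, 87 and 34 in old and 168, 111, 94 and 210 in young replicates 1 to 4. Old replicate 1 exceeded young replicate 3, and the log2 fold change was −1.0 (SE 0.38, edgeR FDR 0.0402 without scaling and 0.896 with TMM). Without old replicate 2, 3 or 4 or young replicate 1 or 4 it did not pass, at −1.10 to −0.77. At chr13:15395251-15395700, 67.5 kb upstream, 181, 188, 169 and 105 counts in old stood beside 187, 123, 328 and 354 in young replicates 1 to 4. The groups overlapped widely there, since young replicate 2 fell below 3 old libraries, and the log2 fold change was −0.63 (SE 0.32, edgeR FDR 0.0808 without scaling), and −0.40 without young replicate 4.

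**Figure D4:**
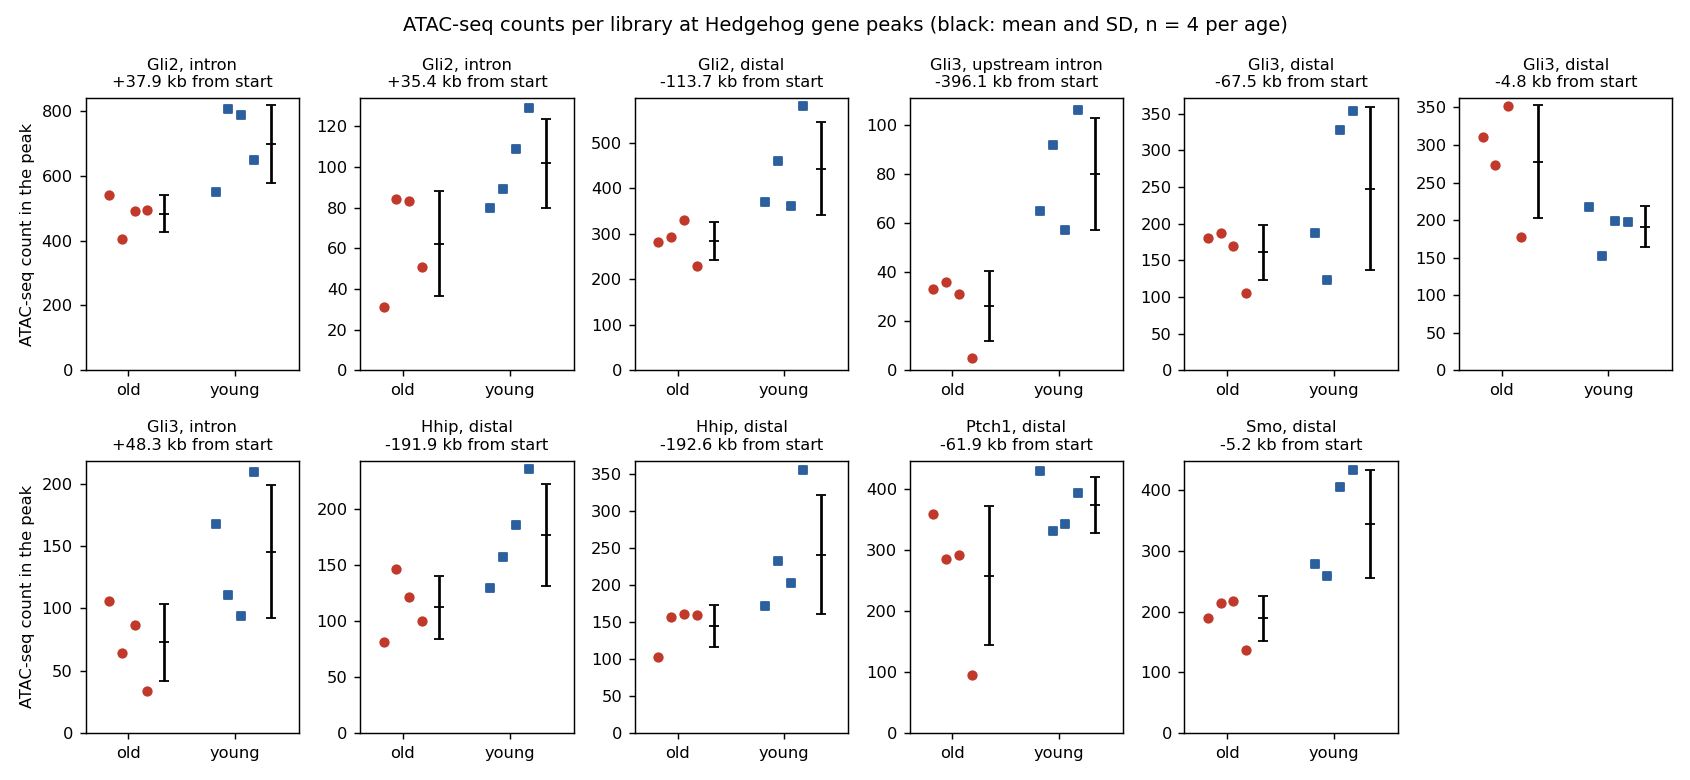
ATAC-seq count per library (vertical axes, from 0) at the 11 listed peaks of Hedgehog genes, old libraries (red circles) left of young libraries (blue squares), in replicate order, with mean and SD in black (n = 4 per age) and the distance from the annotated start above each panel. Old libraries lie below young ones without overlap at 5 peaks, and the Gli3 peak 4.8 kb upstream is the only one with a higher old mean.

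Old replicate 4 had the lowest count of the old libraries at 7 of the 11 peaks, against 46.1% of all listed peaks. It also had the lowest total of the old libraries, 1572998. The part of this library in the differences was not tested beyond leaving it out, and without it 3 of the 11 peaks were called lower. Over the 11 peaks the median log2 fold change was −0.66 without scaling, beside −0.64 over all listed peaks, and −0.05 with TMM, beside −0.05.

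The listed peaks whose counts varied most like those of each gene were found by Pearson's correlation of log2(count + 1) over the 8 libraries, a description that includes the difference between the ages and shares library depth. The Ptch1 peak was most like one annotated to Gpld1, with r of 0.996, and next like peaks of Cfdp1 (0.987) and Acsl4 (0.986). At the Ptch1 peak old replicate 4 had 95 counts beside 285 to 429 in the other libraries, and r was not computed without it. For the Smo peak the closest were at Rffl (0.995), Nmur2 (0.99) and Arhgef28 (0.986). The intronic Gli2 peak was closest to Dync1li2 (0.976), Mir6916 (0.975) and Lysmd3 (0.973), the Hhip peak to Gprc5b (0.966), Opn5 (0.962) and Pex3 (0.956), and the Gli3 peak that was higher in old cells to Rnf144b (0.973), Csmd1 (0.970) and Edn1 (0.959).

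The rest of the pathway was described through 46 further symbols for ligands and their release, reception, transduction and target genes, with Grk2 listed also under its older name Adrbk1. RNA was listed for 4 of them and 1 was called, Prkar1a, a regulatory subunit of protein kinase A, which restrains the pathway. The authors' deposited table gives it a log2 fold change of 0.40 (DESeq2, adjusted p = 0.0306). The co-receptor Cdon (0.40, adjusted p = 0.0553), the survival gene Bcl2 (0.54, 0.0584) and Arrb1, a β-arrestin (−0.45, 0.0897), did not pass in DESeq2's test in the authors' deposited table.

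H3K4me3 peaks were annotated to 37 of the 46, and each of the 37 had at least 1 peak called lower in old cells and none called higher. By peak, 46 of 55 were called lower, while 79.1% of all H3K4me3 peaks and 94.3% of promoter peaks were. The median over their 55 peaks was −1.47, beside −1.37 over all peaks. Those named for the largest called differences were Dhh, another Hedgehog ligand gene, with 2.36 in old and 5.83 in young cells, the forkhead gene Foxc2 with 5.37 in old and 8.0 in young cells, and the kinase gene Grk2 with 3.99 in old and 6.21 in young cells (log2 levels in the authors' deposited table). Pol2 peaks were annotated to 8 of the 46, of which 6 had a peak called lower and 0 higher. By peak, 7 of 34 were called lower, while 52.9% of all Pol2 peaks and 79.1% of promoter peaks were. Of the 34, 29 were annotated to 5 transduction genes, and 3 of those 29 were called lower. At reception genes 1 of 2 peaks was called lower, and at target genes 3 of 3. At the promoter of Gsk3b, a kinase that phosphorylates Gli proteins, the log2 Pol2 level was 5.76 in old and 9.64 in young cells in the authors' deposited table. Gas1, a co-receptor, had 5.47 in old and 9.25 in young cells, and Prkar1a 5.26 in old and 9.01 in young cells in the same authors' deposited table.

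H3K27me3 went both ways in the wider list. Of the 20 symbols with an H3K27me3 peak, 7 had a peak called lower and 3 a peak called higher. By peak, 7 of 86 were called lower and 8 higher, while 2.6% of all H3K27me3 peaks were called lower and 2.66% higher, and 9.19% and 3.14% of promoter peaks. At target genes 6 of 35 peaks were called lower and 0 higher, and at genes for ligands and their release 1 of 25 lower and 8 higher. These counts were not tested against each other. The Scube genes, whose products help release the lipid-bearing ligand, had the largest called differences. In the authors' deposited table Scube2 had 1.64 in old and 4.87 in young cells at a promoter peak (FDR 0.0485). An intergenic peak near Scube3 had 6.70 in old and 3.48 in young cells (FDR 2.75e-05) and an intronic peak of Scube1 6.70 in old and 3.59 in young cells (FDR 8.89e-05) in the authors' deposited table.

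Of the 46 symbols, 15 had 24 listed ATAC-seq peaks, of which 7 were called lower and 2 higher without scaling, and 0 lower and 5 higher with TMM. Over all listed peaks the shares were 46.4% lower and 5.43% higher without scaling, and 0.701% and 13.9% with TMM. A peak in an intron of Hhat, the enzyme that adds palmitate to the ligand, had a higher count in old cells under both. Its counts were 931, 1006, 1180 and 1227 in old and 457, 456, 443 and 590 in young replicates 1 to 4, so that every old library exceeded every young one (log2 fold change 1.16 without scaling, edgeR FDR 0.000834). The Scube1 promoter had 240 ± 55.6 counts in old and 478 ± 58.1 in young libraries (SD, n = 4 each, log2 fold change −1.0, edgeR FDR 0.0111 without scaling and 0.332 with TMM). A peak near the target gene Foxl1 had 38.8 ± 19.8 counts in old and 83.3 ± 29.8 in young libraries (SD, n = 4 each, log2 fold change −1.10, edgeR FDR 0.0429 without scaling and 0.852 with TMM).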

How the data were processed

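Per the submitters' processing notes, STAR 2.5.2b mapped the RNA reads to GRCm38.p5, featureCounts counted them, and DESeq2 1.22.2 made the comparison. The deposited RNA table has, per the file headers, a mean normalized signal over the libraries, the log2 fold change, the test score and p-values before and after adjustment, and it stops at an adjusted p of 0.1. For ChIP-seq the same notes name BWA 0.7.15 with GRCm38, MACS2 2.2.7.1 for peaks and DiffBind 2.14.0 for the test. The deposited ChIP-seq tables give log2 mean normalized read counts per age and no value per sample, so their error and depth are unknown. The authors subtract old from young, and the sign was reversed here. For ATAC-seq the notes name BWA 0.7.12. The deposited ATAC-seq table has whole-number counts by peak and library, a log2 ratio of the unscaled means and the −log10 of a p-value. No listed peak falls below 2.00 on that −log10 scale or below 0.50 in absolute log2 ratio in the deposited table. It is unknown whether counts had been scaled.

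ATAC-seq counts of all 7849 peaks were tested with edgeR 4.0.16 in R 4.3.3 (quasi-likelihood F-test, equal library sizes, two-sided, Benjamini-Hochberg adjustment) after a trial on simulated data, and called at an FDR of 0.05. TMM, library totals, DESeq2 size factors, the DESeq2 1.42.0 Wald test, count filters, a replicate block and leaving out each library were the alternatives. RNA and ChIP-seq calls rest on adjusted p-values by the authors, also under 0.05. A promoter peak is annotated within 1 kb of a start. Coordinates are those of the tables, and gene spans and promoter sequences come from RefSeq (GRCm38.p6). Peaks within 1 kb of a member's span but annotated to another gene were added after seeing the data. Samples are biological replicates according to the series design. Same-numbered libraries did not deviate together, so the numbers were not taken as pairs. The 8 genes, the marker lists and the wider list were chosen with earlier results of these data known. All members are named with all their peaks. From the wider list, every gene in the RNA table and the 3 called genes with the largest absolute log2 fold change in each other assay are named. Python 3.11.15, numpy 2.4.6, pandas 2.3.3 and matplotlib 3.10.9 did the remaining steps.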

Additional observations from a re-analysis of the deposited data

Results flagged for a closer look

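The old and the young ATAC-seq libraries were searched at each of the 11 peaks for a library far from the other 3 of its age, by Dixon's ratio of the gap to the whole range against the 95% critical value. At the Gli3 peak 396 kb upstream, old replicate 4 had 5 counts beside 31 to 36 in the other old libraries, a ratio of 0.839. At the Hhip peak chr8:80250601-80251150, old replicate 1 had 102 counts beside 157 to 160 in the other old libraries, a ratio of 0.948. Chance alone flags about 1 in 20 such groups, and 22 were searched.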

How the results depend on the processing

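The ATAC-seq calls changed with the scaling. Listed peaks called lower in old cells numbered 3643 without scaling, 55 with TMM, 80 with library totals, 59 with DESeq2 size factors, 755 with a replicate block, 155 at an FDR of 0.01 and 1409 to 3197 with 1 library left out. Those called higher numbered 426, 1088, 1070, 1088, 91 and 23 in that order of settings, and 141 to 373 with 1 library left out. Of the 11 peaks of the Hedgehog genes, 6 were called lower without scaling, 0 with TMM, library totals, DESeq2 size factors or the replicate block, and 0 at an FDR of 0.01. With 1 library left out, 2 to 5 were called lower: 2 without old replicate 2 or 3, and 3 without old replicate 4 or young replicate 3 or 4. None was called higher without scaling and 1, at Gli3, with TMM, library totals or DESeq2 size factors and without old replicate 4, so that leaving out 1 library gave 0 to 1. The intronic Gli2 peak turned to 0.063 with TMM and 0.055 with size factors, and the Ptch1 peak to 0.012 and 1.93e-05. Apart from the scaling itself, the cause of these changes was not tested. Same-numbered old and young libraries correlated between −0.19 and 0.04, and other pairs up to 0.17. In the ChIP-seq tables, the 1 H3K27me3 call and the 1 Pol2 call became 0 at an FDR of 0.01, Pol2 calls became 2 with peaks annotated to another gene, and promoters with both marks fell to 1 when 50% of the H3K4me3 peak had to overlap. The RNA and H3K4me3 counts stayed within 1.5 times under the alternatives run on them, which were only other thresholds and other choices of peaks. All called RNA and H3K4me3 values were already under 0.01, so the stricter threshold could not change these counts. With 4 libraries per age, or with group means only, small differences cannot be separated from the spread.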
